A study of Mus musculus with 2 samples.

Results

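The genes described here are 10 genes of melanin synthesis and of the melanosome, Tyr, Tyrp1, Dct, Pmel, Mlana, Gpnmb, Slc45a2, Oca2, Gpr143 and Mitf, out of 32285 genes counted. They were chosen by name, and all 10 had a row in both gene lists. Their UMIs (unique molecular identifiers, which count captured RNA molecules) were followed per barcode and summed over classes of cells, with barcodes of the retinal pigment epithelium (RPE) kept apart from other pigmented barcodes. An RPE barcode had at least 500 UMIs and 200 genes, at most 20% mitochondrial UMIs, at least 1 UMI of Rgr or Rpe65, at least 3 of 12 RPE marker genes and fewer than 10 UMIs of leukocyte markers. This gave 92 of 2068 cell barcodes in the Tsc1 RPE KO library and 42 of 1682 in the Tsc1 flox library, 4.45% (3.60 to 5.43%) and 2.50% (1.81 to 3.36%) of cells, with exact Clopper-Pearson 95% intervals.

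The study profiled RPE and choroid of mouse eyes by droplet single-cell RNA sequencing, with 1 library per genotype. The Tsc1 RPE KO mice carried the floxed allele Tsc1tm1Djk/J together with the Best-Cre transgene, whose recombination the labels place in the RPE. The Tsc1 flox mice carried the same floxed allele without Cre, so both groups share that allele and the control has no Cre of its own. Mice were 10 weeks old, and a male and a female were pooled for each library, so 1 mouse cannot be told apart from the other. The neuroretina was taken off, the eye cups were dissociated enzymatically, and the sort was for live cells, with no enrichment of pigmented cells named. Tsc1 encodes part of the complex that restrains the growth kinase mTORC1. With 1 library per genotype no test could be run, so no difference below is checked against replicates, and every interval reflects counting error alone. In a summed level, fewer molecules of a gene in each cell and fewer cells that use the gene cannot be told apart.

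Melanin is made inside melanosomes, organelles related to lysosomes that ripen in steps. Fibrils of the protein Pmel first form an internal scaffold, the enzymes tyrosinase (Tyr), Tyrp1 and Dct then lay down pigment on it, and transporters of the melanosome membrane set the acidity that tyrosinase needs. The transcription factor Mitf drives many of these genes by binding short E-box motifs near their starts. In the RPE most pigment is laid down during development, and the adult tissue keeps its melanosomes for long periods, whereas melanocytes of the choroid are the other pigmented cells of the posterior eye.

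The promoters of Tyr, Dct and Gpnmb are shown because Tyr was lower in Tsc1 RPE KO while Dct and Gpnmb were higher. Each line is the 250 bases upstream of the RefSeq gene start (GRCm38.p6), 5′ to 3′ on the gene's strand, in lower case with the Mitf-type motif CATGTG or its reverse complement CACATG in capitals. The windows lie at chr7:87493513-87493762 on the minus strand for Tyr, chr14:118052247-118052496 on the minus strand for Dct and chr6:49036268-49036517 on the plus strand for Gpnmb.
Tyr: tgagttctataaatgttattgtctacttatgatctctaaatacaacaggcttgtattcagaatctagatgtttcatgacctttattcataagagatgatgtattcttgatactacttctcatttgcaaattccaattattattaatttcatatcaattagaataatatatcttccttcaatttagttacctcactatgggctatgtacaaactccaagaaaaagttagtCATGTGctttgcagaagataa
Dct: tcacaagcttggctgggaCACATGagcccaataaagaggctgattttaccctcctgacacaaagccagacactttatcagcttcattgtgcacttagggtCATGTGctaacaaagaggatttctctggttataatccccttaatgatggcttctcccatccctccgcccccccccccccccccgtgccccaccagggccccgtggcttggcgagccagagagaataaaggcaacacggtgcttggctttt
Gpnmb: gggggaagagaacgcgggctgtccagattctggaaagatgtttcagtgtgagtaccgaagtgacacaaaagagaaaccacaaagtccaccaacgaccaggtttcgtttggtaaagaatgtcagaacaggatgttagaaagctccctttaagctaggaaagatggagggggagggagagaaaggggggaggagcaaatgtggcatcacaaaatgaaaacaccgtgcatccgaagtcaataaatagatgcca

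Of the 10 genes, 6 had a promoter entry in the RefSeq table, and CATGTG on either strand was found in 4 of them. Counted from the RefSeq start, it stood 21 bases upstream in Tyr, 46 in Tyrp1, 232 and 150 in Dct, and 186 in Oca2. The RefSeq start of Tyrp1 lies downstream of the GENCODE start of the gene given below, so its match falls inside the GENCODE gene. Over all 32851 promoters of this length, 12.3% held it. The longer form TCATGTG, which overlaps CATGTG, was in the Tyr, Tyrp1 and Dct windows and in 3.25% of all promoters. The palindrome CACGTG was in none of the members' windows and in 6.02% of all. TAATCC, the core letters bound by Otx2, was in the Dct window and in 1 of the 3 Mitf windows, and in 6.25% of all promoters. A match is a description of letters, and no match, as in Gpnmb, says only that these letters are not in this window.

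The name of the RPE barcodes was checked first with a gene the rule had not used. Transthyretin (Ttr), the abundant secreted protein of the RPE, stood at 104892 CPM (UMIs of a gene per 1000000 UMIs of the class) in the RPE barcodes of Tsc1 RPE KO and 89109 CPM in Tsc1 flox. Of the RPE barcodes, 91 of 92 and 42 of 42 fell in the cluster led by Ttr, Ptgds, Rgr, Rdh5, Trf and Rpe65, several of which the rule used, so this membership is no independent check. Best1, an RPE chloride channel gene on the marker list, had 0 UMIs in both. Among markers that the rule did use, Rpe65, the isomerase of the visual cycle, stood at 1639 and 6046 CPM, Rgr at 8350 and 16908 CPM, Rdh5 at 7702 and 6295 CPM, and Lrat at 1577 and 1030 CPM. Rlbp1, Rrh, Slc16a8, Rdh10 and Stra6 were also lower in Tsc1 RPE KO, Slc6a20a was higher and Kcnj13 nearly equal. Together the 12 markers summed to 27563 CPM in Tsc1 RPE KO and 42337 CPM in Tsc1 flox. Tsc1 had 0 UMIs in Tsc1 RPE KO and 2 in Tsc1 flox, too few to check the deletion.

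The libraries held 12574364 UMIs for Tsc1 RPE KO and 10771118 for Tsc1 flox, with a median of 4356 and 4290 UMIs per cell. RPE barcodes were shallower, with a median of 1364 UMIs in Tsc1 RPE KO and 1075 in Tsc1 flox, and they summed to 160470 and 60207 UMIs. The libraries shared 2 barcodes among cells and 0 among RPE barcodes. Melanocyte markers that are not members (10 genes) came to 16 UMIs in Tsc1 RPE KO and 8 in Tsc1 flox, or 99.7 and 133 CPM. Sox10 gave 7 and 4 of these UMIs, while Pax3, Erbb3, Mcoln3 and Tfap2a were at 0 in both. The 10 rod markers summed to 411 and 399 CPM. Erythroid markers summed to 65925 and 797 CPM, because 1 Tsc1 RPE KO barcode with 11494 UMIs was 91.8% erythroid. Another 4 Tsc1 RPE KO barcodes and 0 Tsc1 flox barcodes met the RPE rule except for the limit on leukocyte markers and were left out as mixed.

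Across the 10 genes, the pigment enzymes parted in direction. Tyr and Pmel stood far lower in RPE barcodes of Tsc1 RPE KO, Pmel on counts from only 4 Tsc1 flox barcodes. Tyrp1 and Mlana were lower by a factor past 2, Mlana with an interval that includes 1. Dct and Gpnmb stood higher. Of the 9 members with at least 10 UMIs over both libraries, 1 was at least 2-fold higher in Tsc1 RPE KO, Gpnmb, and 4 were at least 2-fold lower, Tyr, Tyrp1, Pmel and Mlana. Among all 2597 genes measured in the same barcodes, 10.7% were at least 2-fold higher and 15.3% at least 2-fold lower. With Pmel set at a floor of 3 counts, the median log2 ratio of the 9 members was -0.61, against -0.15 over all measured genes.

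**Figure D1:**
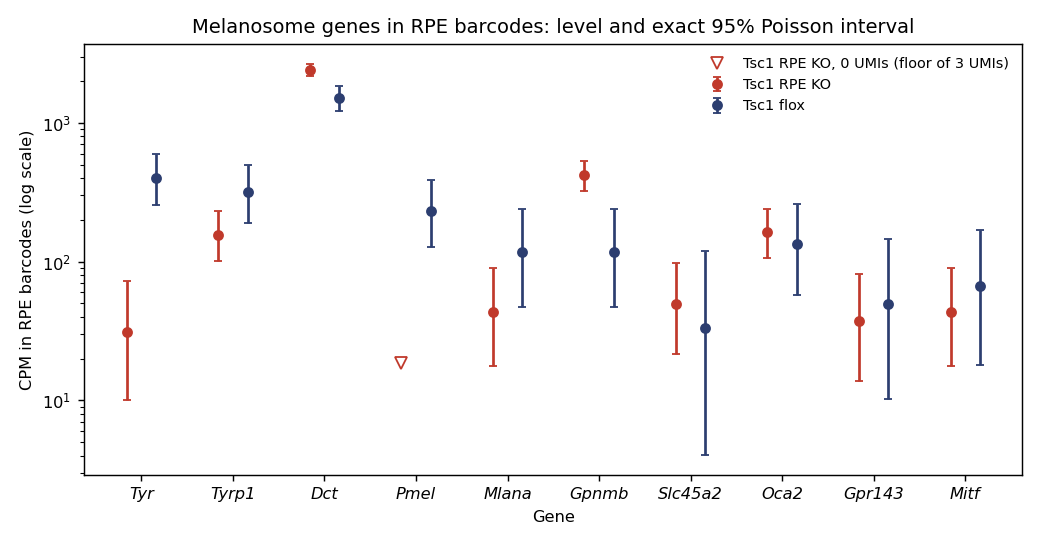
Level of each gene in CPM (log axis) summed over the RPE barcodes of Tsc1 RPE KO (red, left) and Tsc1 flox (blue, right), with exact 95% Poisson intervals that cover counting error only. Tyr is at 31.2 against 399 CPM, Dct at 2418 against 1511 CPM and Gpnmb at 418 against 116 CPM. The open triangle is the floor of 3 counts, 18.7 CPM, for the 0 UMIs of Pmel in Tsc1 RPE KO.

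Tyrosinase, the enzyme that oxidises tyrosine in the first and rate-limiting step of melanin synthesis, is encoded by Tyr (ENSMUSG00000004651, mm10 chr7:87424771-87493512, minus strand). It had 5 UMIs in 4 of 92 RPE barcodes of Tsc1 RPE KO and 24 UMIs in 14 of 42 RPE barcodes of Tsc1 flox. These are 31.2 CPM (10.1 to 72.7) and 399 CPM (255 to 593). The intervals of the libraries did not overlap, and the level was 12.8-fold lower in Tsc1 RPE KO (4.78 to 42.9). Single barcodes did not carry it: the highest held 2 UMIs in Tsc1 RPE KO and 3 in Tsc1 flox, and without the highest barcode of each library the level was 18.7-fold lower. Shallow barcodes showed the same order as deep ones, with 139 CPM in Tsc1 RPE KO and 695 CPM in Tsc1 flox below 1000 UMIs, and 14.4 and 293 CPM from 1000 UMIs. After each barcode was thinned to 500 UMIs, Tyr was seen in 1 of 92 and 8 of 42 barcodes.

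Tyrp1, which encodes a tyrosinase-related protein that in mice acts on a later intermediate and stabilises tyrosinase (ENSMUSG00000005994, chr4:80834123-80851719, plus strand), had 25 UMIs in 22 barcodes of Tsc1 RPE KO and 19 UMIs in 13 barcodes of Tsc1 flox. The levels were 156 CPM and 316 CPM, 2.03-fold lower in Tsc1 RPE KO (1.05 to 3.83). Its place past 2-fold rests on the setting: under 3 of 14 alternatives it was at least 2-fold lower, and over all 14 it was 1.34-fold to 2.38-fold lower. With the erythroid-dominated barcode left out it was 1.88-fold lower.

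Dct, dopachrome tautomerase, turns dopachrome into the carboxylated precursor of brown-black pigment. The gene (ENSMUSG00000022129, chr14:118012790-118052244, minus strand) is overlapped on the other strand by 4930435M08Rik, and whether counting used strand is not given in the sources used here. It had 388 UMIs in Tsc1 RPE KO and 91 in Tsc1 flox, or 2418 CPM (2183 to 2671) and 1511 CPM (1217 to 1856), a ratio of 1.60 (1.27 to 2.03). It was seen in 80 of 92 RPE barcodes (87.0%) and 31 of 42 (73.8%), and in 59.8% and 47.6% after thinning to 500 UMIs. Per barcode the median was 3 UMIs in Tsc1 RPE KO and 1 in Tsc1 flox, the lowest was 0 in both, and the highest was 44 and 9. Below 1000 UMIs Dct stood at 3058 and 2021 CPM, and from 1000 UMIs at 2318 and 1330 CPM. The barcode with 44 UMIs held 11.3% of the Dct count of Tsc1 RPE KO, and without the highest barcode of each library the ratio was 1.58. A second Tsc1 RPE KO barcode, with 41 Dct UMIs, was kept in that ratio, and the next highest held 11. The ratio without both high barcodes was not computed, so 1.58 does not show that few barcodes matter little. Without the 16 and 7 RPE barcodes that held a melanocyte-marker UMI, 242 and 73 Dct UMIs were left and the ratio was 1.25, while among the 45 and 12 barcodes deepest in RNA, those past 10% of the top barcodes' depth, it was 2.15.

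The 3 enzymes thus did not move as a block. Tyr was seen in 4 RPE barcodes of Tsc1 RPE KO and 14 of Tsc1 flox. Of these, 4 and 12 also held Dct, and 1 and 6 also held Tyrp1. The overlaps are limited by how few barcodes held Tyr and do not show that the enzymes parted within cells. Dct made up 72.0% of the UMIs of all 10 genes in Tsc1 RPE KO and 50.8% in Tsc1 flox. With Dct the 10 genes summed to 3359 and 2973 CPM, and without it to 941 and 1462 CPM, so the summed level was higher or lower in Tsc1 RPE KO depending on this 1 gene.

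**Figure D2:**
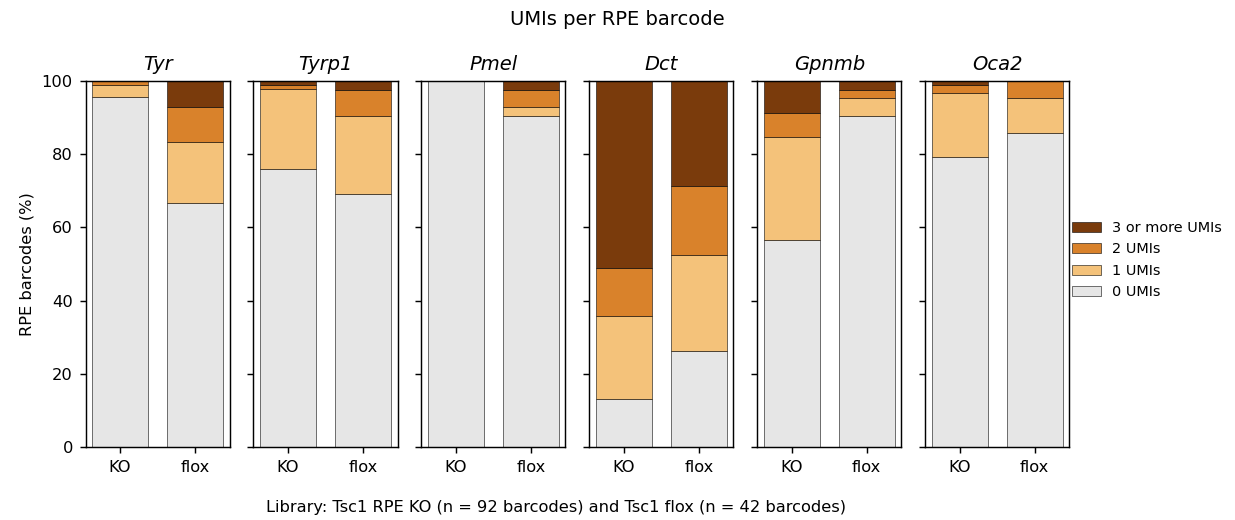
Share of RPE barcodes (percent) that held 0, 1, 2 or at least 3 UMIs of 6 of the genes, for 92 barcodes of Tsc1 RPE KO (left bar) and 42 barcodes of Tsc1 flox (right bar). No Tyr UMI was found in 95.7% of the Tsc1 RPE KO barcodes and 66.7% of the Tsc1 flox barcodes, Gpnmb was seen in 43.5% and 9.52%, and Dct reached 3 UMIs in 51.1% and 28.6%.

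Among the structural proteins, Pmel stood lower in Tsc1 RPE KO and Gpnmb, a glycoprotein of late melanosomes and lysosomes related to Pmel, stood higher. Pmel (ENSMUSG00000025359, chr10:128704195-128720238, plus strand), which encodes the fibril protein of the early melanosome, had 0 UMIs in the 92 RPE barcodes of Tsc1 RPE KO and 14 UMIs in 4 of the 42 of Tsc1 flox. A floor of 3 counts over all RPE barcodes of Tsc1 RPE KO is 18.7 CPM, against 233 CPM (127 to 390) in Tsc1 flox. At that floor Pmel was 12.4-fold lower in Tsc1 RPE KO, a value that leaves out the counting error of Tsc1 flox. The exact interval of the ratio, which counts the error of both libraries, put it at least 8.84-fold lower. That interval treats the 14 UMIs as independent, but they lay in only 4 barcodes, so 8.84 is no firm lower bound. By the same floor of 3, the 0 of 92 barcodes allows a share of up to 3.26% with a UMI. The exact interval of the share in Tsc1 RPE KO, 0 to 3.93%, overlapped that of Tsc1 flox, 2.66 to 22.6%. After thinning, Pmel was seen in 0 of 92 barcodes of Tsc1 RPE KO and 2 of 42 of Tsc1 flox.

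The Pmel count of Tsc1 flox was uneven. The 4 barcodes had 845, 938, 1264 and 1358 UMIs in all and held 1, 2, 2 and 9 Pmel UMIs, so 1 barcode gave 64.3% of the count. All 4 also held Dct, between 1 and 9 UMIs, and none held a melanocyte marker. Without the highest barcode, 5 UMIs remained in Tsc1 flox, and at the floor the level in Tsc1 RPE KO was 4.50-fold lower. That value is no lower bound, because it leaves out the counting error of the 5 UMIs. One of the mixed barcodes of Tsc1 RPE KO, with 10006 UMIs of which 90 were leukocyte markers, held 9 Pmel, 3 Mlana, 16 Dct and 417 Ttr UMIs. With the mixed barcodes kept, Pmel had 9 UMIs in Tsc1 RPE KO and 14 in Tsc1 flox and was 4.88-fold lower. Dgka and Cdk2 overlap Pmel on the other strand.

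Mlana (ENSMUSG00000024806, chr19:29697824-29708634, plus strand), a small melanosomal membrane protein that binds Pmel, had 7 UMIs in each library, in 7 barcodes of Tsc1 RPE KO and 5 of Tsc1 flox. These are 43.6 and 116 CPM, 2.67-fold lower in Tsc1 RPE KO, with an interval of 0.798 to 8.90 that includes 1. Under 3 of 14 alternatives it was less than 2-fold lower, down to 1.77-fold.

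Gpnmb (ENSMUSG00000029816, chr6:49036546-49070929, plus strand) had 67 UMIs in 40 of 92 RPE barcodes of Tsc1 RPE KO and 7 UMIs in 4 of 42 of Tsc1 flox. The levels were 418 CPM (324 to 530) and 116 CPM (46.7 to 240), a ratio of 3.59 (1.65 to 9.27). The share of barcodes with a UMI was 43.5% (33.2 to 54.2%) and 9.52% (2.66 to 22.6%), and after thinning to 500 UMIs it was seen in 23 and 3 barcodes. In 33 of the 40 Tsc1 RPE KO barcodes and in all 4 of Tsc1 flox it was seen together with Dct. Among all RPE barcodes Dct was seen in 87.0% and 73.8%, so this overlap is no sign of a link between the 2 genes. Below 1000 UMIs the levels were 556 and 189 CPM, and from 1000 UMIs 396 and 90.2 CPM, so the order held at both depths. Gpnmb is also made by macrophages, whose 8 markers summed to 187 CPM in RPE barcodes of Tsc1 RPE KO and 116 CPM in Tsc1 flox. Their part in the result was not tested. With only 1 UMI left in Tsc1 flox, under the minimum of 10% of the top barcodes' depth, the ratio was 12.1.

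The membrane proteins that set the chemistry of the melanosome were seen in few barcodes. Oca2 (ENSMUSG00000030450, chr7:56239760-56536518), which encodes a chloride channel that raises melanosomal pH, had 26 UMIs in 19 barcodes of Tsc1 RPE KO and 8 in 6 barcodes of Tsc1 flox. At 162 and 133 CPM its ratio was 1.22 (0.536 to 3.12). Every Oca2 UMI found in cells lay in RPE barcodes in both libraries, 26 of 26 and 8 of 8. Slc45a2, a transporter that also acts on melanosomal pH, had 8 and 2 UMIs, or 49.9 and 33.2 CPM, a log2 ratio of 0.59 with an interval of the ratio of 0.299 to 14.5. Gpr143, the melanosomal receptor lost in ocular albinism, had 6 and 3 UMIs, or 37.4 and 49.8 CPM, a ratio of 0.750 (0.160 to 4.64), and was below the 10 UMIs asked of a measured gene. For these 3 genes the counting intervals of the ratio span more than 2-fold in each direction except for the lower bound of Oca2, so a difference of 2-fold was not detectable at this depth.

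Mitf (ENSMUSG00000035158, chr6:97807052-98021349), the regulator, had 7 UMIs in 5 RPE barcodes of Tsc1 RPE KO and 4 UMIs in 3 of Tsc1 flox. The levels of 43.6 and 66.4 CPM gave a ratio of 0.657 (0.167 to 3.06). No direction can be read for Mitf, which was lower in Tsc1 RPE KO under 13 of 14 alternatives and higher under 1, the mean of per-barcode levels.

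As the background of free RNA in the droplets, B cell-like cells, which should lack pigment genes, were counted at a median of 3817.5 UMIs in Tsc1 RPE KO and 3853 in Tsc1 flox, deeper than the RPE barcodes. Tyr was seen in 1 of 332 and 2 of 433 of them, Dct in 2 and 0, Pmel in 0 and 2, Mlana in 0 and 1 and Mitf in 1 and 1, and the other members in 0. Apart from Pmel in Tsc1 RPE KO, which was at 0, the shares in RPE barcodes were higher than this background as point values. The intervals overlapped for Tyr in Tsc1 RPE KO, 1.20 to 10.8% against up to 1.67%. They also overlapped for Slc45a2 in Tsc1 flox, 0.582 to 16.2% against up to 0.848%. Barcodes with 10 to 100 UMIs, which hold mostly free RNA, had 80.9 and 17.8 CPM of Dct, 1.48 and 5.66 CPM of Tyr, 10.4 and 4.85 CPM of Gpnmb and 11.1 and 8.09 CPM of Pmel. The free RNA of Tsc1 RPE KO had more Dct, with intervals that did not overlap, while the intervals of Tyr, Gpnmb and Pmel did overlap. How much of the difference in RPE barcodes comes with free RNA was not tested beyond the subtraction of a 10% share, which left Tyr 12.8-fold lower and Gpnmb at a ratio of 3.60.

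**Figure D3:**
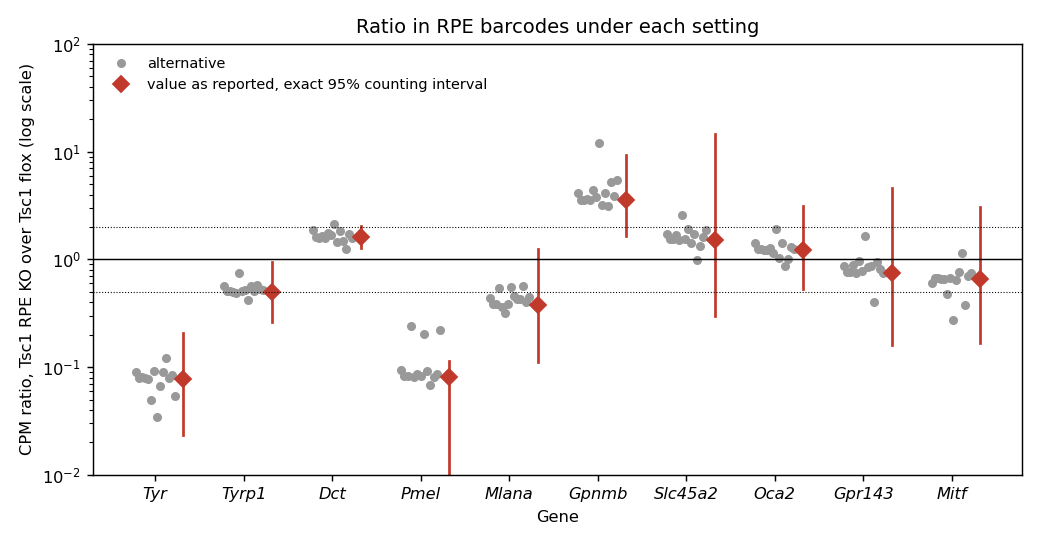
Ratio of CPM in RPE barcodes, Tsc1 RPE KO over Tsc1 flox (log axis), for each gene as reported (red, exact 95% counting interval) and under each alternative (grey, spread sideways for sight); the solid line is 1 and the dotted lines mark 2-fold. For Pmel the red point and the grey points at 0 UMIs are set at the floor of 3 counts, which leaves out the counting error of Tsc1 flox. Every alternative for Tyr lies between 8.20-fold and 29.1-fold lower and every one for Gpnmb between 3.14 and 12.1.

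RPE barcodes held most of the enzyme counts, though not those of every member. Of all UMIs found in cells, RPE barcodes had 83.3% of Tyr in Tsc1 RPE KO and 92.3% in Tsc1 flox, 86.2% and 100% of Tyrp1, 77.8% and 95.8% of Dct and 93.1% and 70.0% of Gpnmb. Pmel and Mlana differed: 0 of 25 Pmel UMIs of Tsc1 RPE KO lay in RPE barcodes and 14 of 20 of Tsc1 flox, and 29.2% and 77.8% of Mlana. Mitf lay mostly elsewhere, with 10.9% and 7.27% in RPE barcodes.

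Outside the RPE, Mitf was the member with a wide spread over classes. Mast cell-like cells, a lineage in which Mitf is a known regulator, numbered 13 in each library. They had 46.5 CPM of Mitf in Tsc1 RPE KO, from 2 UMIs in 1 cell. In Tsc1 flox they had 119 CPM from 8 UMIs in 2 cells, of which 1 cell held 5. Fibroblast-like cells had 13.7 and 16.1 CPM, an unnamed cluster led by F13a1 had 12.9 and 7.72 CPM and monocyte-like cells had 8.09 and 5.83 CPM. Pericyte or smooth muscle-like cells had 0 UMIs in 9 cells of Tsc1 RPE KO and 2 UMIs, or 53.2 CPM, in 10 cells of Tsc1 flox. The counting intervals of the mast cell-like level and of the RPE barcodes overlapped in both libraries.

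**Figure D4:**
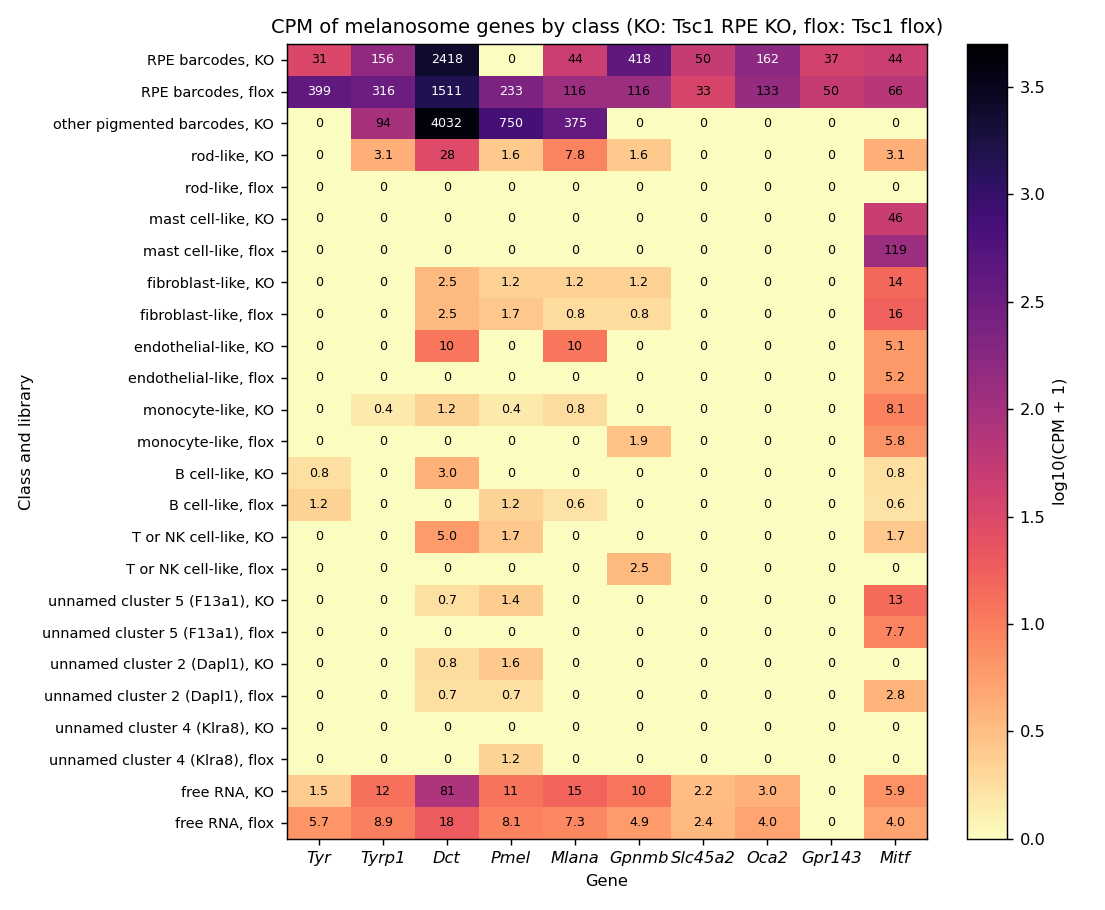
Level of each gene (columns) in each class and library (rows, Tsc1 RPE KO above Tsc1 flox), printed in CPM and coloured by log10(CPM + 1). Tyr, Tyrp1, Oca2 and Gpnmb are concentrated in the RPE rows, and Mitf also has counts in mast cell-like, fibroblast-like and monocyte-like rows. Dct is high in the RPE rows and highest, at 4031.5 CPM, in the other pigmented barcodes of Tsc1 RPE KO. The other pigmented barcodes were chosen by these genes, so their row is a description.

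Other pigmented barcodes, with at least 3 UMIs over at least 2 of 8 pigment genes and no UMI of Rgr or Rpe65, numbered 5 of 2068 cells in Tsc1 RPE KO and 0 of 1682 in Tsc1 flox. Mitf and Gpnmb were not used to choose them, and both were at 0 in all 5. The pigment genes that chose them were Dct, with 17, 10, 6, 4 and 6 UMIs, Pmel with 1 and 7 UMIs in the first 2, Mlana with 1, 1 and 2 in the others, and Tyrp1 with 1 in the last. In that order the barcodes had 559, 934, 2464, 2783 and 3926 UMIs. None held Tyr.

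The 5 barcodes differed among themselves in genes other than the pigment genes. In the same order, rod markers had 0, 70, 107, 219 and 267 UMIs and RPE markers 2, 1, 0, 2 and 0 UMIs. Rgr and Rpe65 are among the RPE markers and were at 0 by the rule, so low RPE marker counts were partly set in advance. The first barcode lay in the monocyte-like cluster with 0 UMIs of monocyte markers, and the last 3 in a rod-like cluster. Ttr had 1 UMI over all 5, while every RPE barcode held Ttr. The melanocyte markers had 0, 1, 0, 0 and 1 UMIs, and the Schwann cell markers 0 in all. The barcode with 934 UMIs was marked as a doublet by Scrublet. The 5 barcodes are therefore called by their rule here and given no cell type.

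Dct also lay in barcodes with little sign of RPE RNA. In Tsc1 RPE KO, 30 cells outside the RPE, mixed and other pigmented barcodes held 39 Dct UMIs, and 28 of the 30 had no Ttr; in Tsc1 flox 4 cells held 4 Dct UMIs with no Ttr. Per 1000 Ttr UMIs, RPE barcodes had 23.1 Dct UMIs in Tsc1 RPE KO and 17.0 in Tsc1 flox, and free RNA 40.0 and 17.8. Rod-like cells of Tsc1 RPE KO had 18 Dct UMIs beside 31 Ttr UMIs, or 581 per 1000, while those of Tsc1 flox had 0 Dct and 3 Ttr UMIs. There were 224 and 60 rod-like cells.

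**Figure D5:**
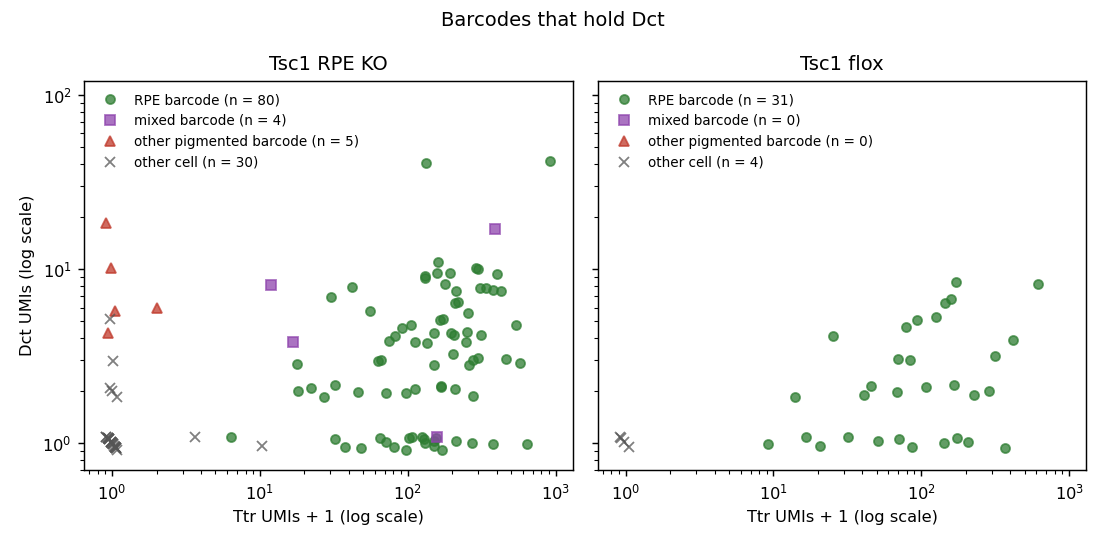
Each point is a barcode that held Dct, by its Ttr UMIs plus 1 and its Dct UMIs (both log axes, spread slightly for sight), for Tsc1 RPE KO on the left and Tsc1 flox on the right. RPE barcodes (80 and 31) all hold Ttr, whereas 4 of the 5 other pigmented barcodes and 28 of the 30 other cells of Tsc1 RPE KO hold none.

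Around the 10 genes, a wider list of 75 names from melanosome biology was counted in the same barcodes. Of these, 24 were measured in RPE barcodes, 2 were at least 2-fold higher in Tsc1 RPE KO, 0 were at least 2-fold lower and 22 lay within 2-fold, beside 10.7% and 15.3% of all measured genes at least 2-fold higher and lower. The median log2 ratio of the 24 was -0.28, against -0.15 over all measured genes. Both higher genes rested on few counts: Dtnbp1, a subunit of the sorting complex BLOC-1, had 12 and 2 UMIs, a ratio of 2.25 (0.501 to 20.7), and Furin, a proprotein convertase that cuts Pmel, had 11 and 2, a ratio of 2.06 (0.450 to 19.2). A further 15 names were at 0 in both libraries.

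The transcription factors of pigment cells were mostly too rare to compare. Of 11, 3 were measured. Otx2, which acts with Mitf in RPE development, was at 361 and 332 CPM, a ratio of 1.09 (0.645 to 1.91). Sox9 was at 212 and 299 CPM, a ratio of 0.709 (0.389 to 1.33). Sox10, a factor of melanocytes and Schwann cells, had 7 and 4 UMIs, a ratio of 0.657 (0.167 to 3.06).

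Among sorting and transport genes, 7 of 28 biogenesis genes and 3 of 7 motility genes were measured, and 9 of these 10 lay within 2-fold. Cd63, a tetraspanin that helps sort Pmel, was at 1265 and 1644 CPM, 1.30-fold lower in Tsc1 RPE KO (1.01 to 1.66). Bloc1s1, a BLOC-1 subunit, was at 187 and 332 CPM, 1.78-fold lower (0.956 to 3.23). Slc24a5, the cation exchanger of the pigment organelle, was at 349 and 332 CPM, a ratio of 1.05 (0.621 to 1.85). Mif, which has dopachrome tautomerase activity in vitro and is better known as a cytokine, was at 1477 and 2359 CPM, 1.60-fold lower (1.29 to 1.97). Ctsd, the lysosomal protease cathepsin D, was at 2673 and 2359 CPM, a ratio of 1.13 (0.935 to 1.38).

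The genes whose levels ran most like the summed members over 26 class-by-library values were Ttr, the glycine transporter gene Slc6a9, transferrin (Trf), metallothionein 1 (Mt1) and Nt5dc2. Their Pearson r of log2(CPM + 1) were 0.860, 0.833, 0.829, 0.818 and 0.809 among 503 candidate genes, a description of points that share libraries and depth. Candidates had passed a count minimum in the RPE barcodes, and the RPE marker genes and the members were left out. This choice favours genes of the RPE in advance, so the ranking is no support for a link with the members. In RPE barcodes their ratios between the libraries ran from 0.668 for Mt1 to 1.69 for Trf.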

How the data were processed

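Single-cell libraries of RPE and choroid, 1 per genotype, were analysed from the deposited raw UMI counts per gene and barcode, which the authors had not filtered for cells. Per the file headers the counts came from Cell Ranger 4, but version 2.1.1 with mm10 is given by the submitters' processing notes; the labels name a 3′ v2 kit. Strand use in counting is not given in the sources used here.

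Cells had at least 500 UMIs and 200 genes and at most 20% mitochondrial UMIs. RPE barcodes were gated as the report states. Cells not marked by Scrublet, RPE barcodes included, were clustered with scanpy 1.11.5 and leidenalg 0.10.2 (2000 variable genes, 30 principal components, 20 neighbours, resolution 1) and named from marker lists. Scrublet marked 24 Tsc1 RPE KO and 11 Tsc1 flox barcodes, kept out of the named clusters; 0 RPE barcodes and 1 other pigmented barcode were marked, and the last is counted in its set. Counts were summed and given per 1000000 UMIs (CPM). Intervals are exact 95% Poisson (CPM), conditional binomial (ratio) and Clopper-Pearson (shares), from scipy 1.17.1, and cover counting error only. Ratios are Tsc1 RPE KO over Tsc1 flox; a gene with at least 10 UMIs was measured, at least 2-fold was called, and 0 UMIs were set against 3 counts. All 10 members are named; of the wider list, the 4 genes at each end by interval bound (Cd63 fell at both ends) and measured transcription factors are named, and Dtnbp1 and Furin were named after their values were seen. The members and all gene lists were chosen with earlier results of these data known. The ratio method was tested on simulated data. Coordinates come from GENCODE M21 (mm10), which holds 32235 of 32285 gene identifiers, and promoter sequences from RefSeq (GRCm38.p6). Alternatives changed the depth minimum, gate, mixed barcodes, scaling, weighting, free RNA, low-count limit and fold; leaving out the erythroid-dominated barcode and barcodes with melanocyte markers was added after seeing the data.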

Additional observations from a re-analysis of the deposited data

Results flagged for a closer look

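Barcodes too shallow to count as cells also held pigment genes. Among barcodes with at least 20 and fewer than 500 UMIs and no UMI of Rgr or Rpe65, 7 of 27160 in Tsc1 RPE KO and 2 of 22923 in Tsc1 flox had at least 3 UMIs over at least 2 of the 8 pigment genes, a signal in data outside the comparisons of the report. The 7 barcodes of Tsc1 RPE KO had 60 to 304 UMIs and held 29 Dct, 11 Mlana, 5 Pmel, 5 Tyrp1 and 1 Tyr UMIs. The 2 of Tsc1 flox had 47 to 57 UMIs and held 2 Dct, 3 Pmel, 1 Mlana and 1 Tyrp1 UMIs. Ttr had 1 UMI over the 7 and 0 over the 2, and the melanocyte markers had 3 and 1. What these barcodes were was not tested.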

How the results depend on the processing

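The count of members at least 2-fold lower was 4; it was 4 under 4 alternatives, 3 under 8 (the 200-UMI minimum, the gate variants, the RPE-like cluster, no erythroid-dominated barcode, scaling and per-barcode weight) and 5 at 1.5-fold; it became 2 with a minimum of 1000 UMIs per barcode, 2 without RPE barcodes that hold a melanocyte-marker UMI (chosen after seeing the data), 2 when a measured gene needed at least 20 UMIs, 2 at 3-fold, and 0 with a minimum of 10% of the top barcodes' depth, where Tyr had 1 UMI in Tsc1 RPE KO and 8 in Tsc1 flox and was no longer measured. The count at least 2-fold higher was 1; it became 2 at that minimum (Dct and Gpnmb) and 3 at 1.5-fold (Dct, Slc45a2 and Gpnmb). The 5 other pigmented barcodes became 3 with at least 1000 UMIs and 3 at the percentile minimum, 7 with at least 200 UMIs and 6 when 1 pigment gene sufficed, with 0 in Tsc1 flox throughout. The causes were not tested beyond the fewer barcodes and genes that each construction leaves: the percentile minimum left 45 RPE barcodes in Tsc1 RPE KO and 12 in Tsc1 flox.

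Ratios of Tyr, Tyrp1, Pmel and Mlana stayed below 1 and those of Dct and Gpnmb above 1 under every alternative run, which for Pmel were 13 and for the others 14. The median log2 ratio of the measured members was above 0 at the percentile minimum (1.02) and with at least 20 UMIs (0.29). Scaling without mitochondrial, ribosomal protein and the 20 most abundant genes moved the median log2 ratio of all genes by 0.21, and Tyrp1 was then 1.76-fold lower. Depth limits Mitf, Slc45a2 and Gpr143, with 9 to 11 UMIs each. No paired analysis was possible because each genotype has 1 library.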
